A study of Mus musculus with 15 samples.

Results

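The comparison described here set the jejunal epithelium of peanut-sensitized mice killed 60 min after a peanut challenge against that of peanut-sensitized mice that were not challenged. Libraries were chosen by their titles, 3 for the 60 min mice and 3 for the sensitized controls, which makes 6 of the 15 libraries of the study. All mice were of CC027/GeniUnc, an inbred strain of the Collaborative Cross panel. The 60 min mice had received 2 mg of crude peanut extract into the stomach once a week for 3 weeks, 5 mg in week 4, and later a challenge of 12 mg in the same way. The sensitized controls had received the same sensitizing doses and no challenge. The other groups, of 3 mice each, were sensitized mice killed 30 or 120 min after challenge and unchallenged mice that had received PBS in place of peanut. A challenge of mice given PBS and a challenge without peanut were not analysed here, so the effects of peanut and of the gavage cannot be told apart. Age and sex are not stated in the labels.

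The jejunal epithelium is a single layer of absorptive enterocytes, mucus-producing goblet cells, hormone-producing enteroendocrine cells, antimicrobial Paneth cells at the crypt base, and dividing stem and progenitor cells. In a sensitized animal, food allergen that crosses this layer can meet IgE on mast cells, which release their mediators within minutes. Cells answer changes in protein load with chaperones: the cytosolic heat shock proteins, which heat shock factor HSF1 induces, and the chaperones of the endoplasmic reticulum (ER), which the unfolded protein response induces through ATF6, XBP1 and ATF4. HSP40 proteins, named Dnaj in mice, pass unfolded clients to HSP70 proteins and stimulate their ATPase.

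Polyadenylated RNA was sequenced in paired reads of 151 bp from cells shaken off the opened jejunum after 75 min in EDTA and DTT at room temperature. Each 60 min library held 15967713 to 19551034 estimated counts, and each sensitized control 16617941 to 19553736. Of these, mitochondrially encoded genes took 14.04%, 18.3% and 33.2% at 60 min, against 18.2%, 17.2% and 26.7% in the controls (means 21.8 ± 10.1% and 20.7 ± 5.26%, SD, n = 3 each; exact two-sided permutation p = 0.8, where 0.1 is the smallest that 3 against 3 allows). Levels are given in CPM, counts scaled to a common library size after TMM normalization, and each library was taken as 1 mouse. The 12 epithelial markers, led by Epcam, keratins and Vil1, summed to 13392 to 14641 CPM at 60 min and 16114 to 16454 CPM in the controls. Markers of T cells and intraepithelial lymphocytes summed to 48.0 to 193.9 CPM at 60 min and 90.3 to 322.1 CPM in the controls, and those of stroma and endothelium to 33.4 to 37.7 and 22.9 to 48.5 CPM. In such bulk samples, fewer cells of a type and less RNA per cell cannot be told apart.

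Of 14968 genes tested across all 15 libraries in 1 fit (edgeR's quasi-likelihood test with Benjamini-Hochberg adjustment), 1 passed an adjusted p of 0.05 at 60 min against the sensitized controls (0.00668%), and it was lower: Dnajb1. No gene passed with a higher level (0%). An unadjusted p under 0.05 was found for 1883 genes (12.6%), 971 of them higher (6.49%) and 912 lower (6.09%). DESeq2 called 189 genes, 129 higher and 60 lower, and limma-voom called 1. Without 60 min replicate 1, edgeR called 385 genes, 220 higher and 165 lower; without 60 min replicate 2 it called 0 genes, with 1487 at an unadjusted p under 0.05. Over all genes, 47.6% had log2 fold changes above 0 and 52.3% below 0, and the median was −0.02.

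Transcript length moved with the direction of these values. The 971 genes that were nominally higher had a median effective transcript length of 4321 bases and the 912 that were nominally lower one of 1315 bases, against 2193 bases for all genes tested. With genes in 5 equal bins from short to long, the median log2 fold change was −0.22, −0.10, −0.04, 0.04 and 0.19. Single libraries differed in this: between the longest and the shortest bin the median log2 CPM, relative to the mean of the 6 unchallenged libraries, differed by 0.01, 0.44 and 0.77 in 60 min replicates 1 to 3, and by −0.02, −0.01 and 0.01 in the sensitized controls. These controls are part of that mean, which draws their values toward it. In replicates 1 to 3 of the other groups the values were −0.13, 0.29 and 0.07 at 30 min and −0.06, 0.14 and 0 at 120 min. PBS mice, also part of the mean, were at −0.16, 0.08 and 0.06. Among the 6 libraries of the comparison, 60 min replicate 3 stood farthest out in both length and mitochondrial share, and 60 min replicate 1 lay among the controls in length. The part of length in the gene groups was not tested. Medians with each library's length trend removed, a setting chosen after seeing the data, are given beside the main ones for some gene lists. Of the others, the T cell median was −0.44 (main −0.78), the erythroid −0.73 (−1.19) and the mitochondrially encoded 0.67 (0.32). MHC class II was at −0.04 (−0.19) and ion transport at −0.08 (0.03). Enteroendocrine and interferon-stimulated genes moved less, to −0.42 (−0.42) and −0.41 (−0.48).

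**Figure D1:**
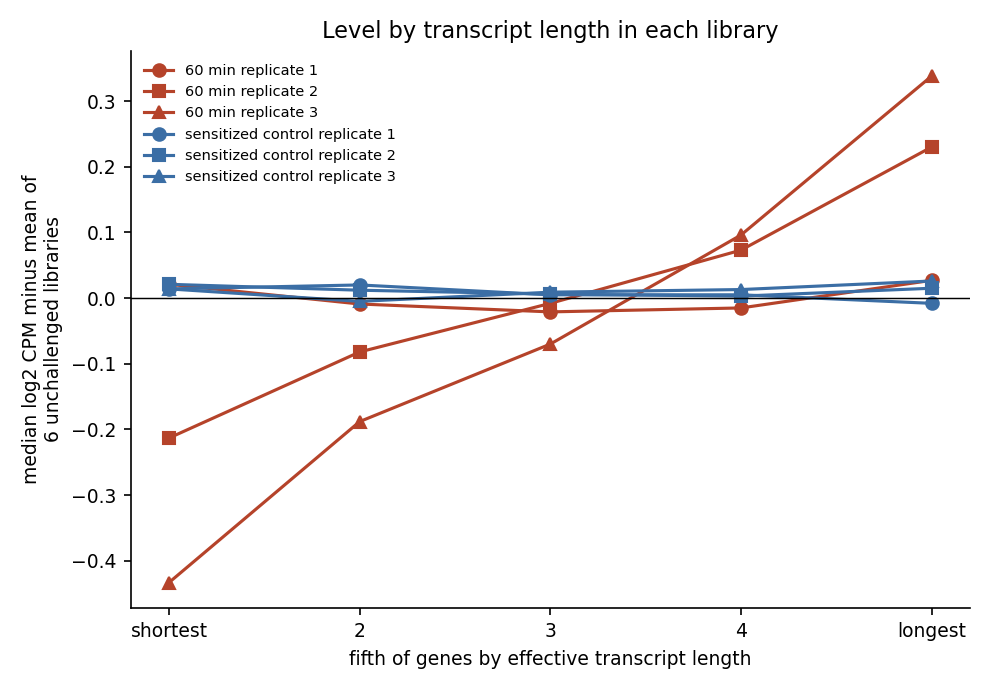
Median log2 CPM of each library minus the mean of the 6 unchallenged libraries (vertical axis), by bin of genes, 5 in order of effective transcript length (horizontal axis), for the 3 libraries at 60 min in red and the 3 sensitized controls in blue. In 60 min replicate 3 the values run from −0.43 in the shortest to 0.34 in the longest bin, in replicate 2 from −0.21 to 0.23, and the controls stay within 0.03 of 0.

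Dnajb1 (ENSMUSG00000005483.10; GRCm38 chr8:83608193-83612653, plus strand) encodes a cytosolic HSP40 that activates HSP70. Its level was 96.8, 79.9 and 69.1 CPM in the 60 min mice, against 150, 175 and 212 CPM in the sensitized controls. The highest 60 min value lay below the lowest control. The log2 fold change was −1.12 ± 0.16 (standard error), with an adjusted p of 0.0454 in edgeR's quasi-likelihood test. In the other groups Dnajb1 was at 136, 103 and 111 CPM at 30 min, at 110, 102 and 132 CPM at 120 min, and at 144, 145 and 156 CPM in PBS mice. All 3 libraries at 60 min were below all 12 others. Of the estimated counts of the gene, 97.9% to 99.8% came from 1 transcript in each of the 6 libraries, ENSMUST00000005620.9. The fold change stayed between −1.25 and −0.99 whichever of the 6 libraries was left out. Dnajb1 no longer passed when 60 min replicate 2 (adjusted p = 0.282), 60 min replicate 3 (0.231), control replicate 2 (0.122) or control replicate 3 (0.407) was left out, and it passed without either replicate 1. The 2 settings for transcript length differed: it passed with the length trend removed (−1.15, adjusted p = 0.041) but not with a transcript length offset (−1.10, adjusted p = 0.0646). In a fit of the 6 libraries alone it did not pass either (−1.12, adjusted p = 0.367). With PBS mice in place of the sensitized controls the fold change was −0.86 (adjusted p = 0.322).

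The heat shock list held 26 tested genes, of which 21 had negative log2 fold changes and 5 positive ones, with a median of −0.30 (−0.21 with the length trend removed). At an unadjusted p under 0.05, 9 were lower and 1 higher (against 6.09% and 6.49% of all genes). In 10 of the 26 all 60 min libraries lay below all controls, against 9.14% of all genes tested, and in 1 all lay above, against 9.37%. Hspb1 and Cryab, small heat shock proteins, were too low to be tested. Dnajb1 is 1 of these 26 genes.

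Among the HSP70 proteins, the inducible pair Hspa1a and Hspa1b had the lowest fold changes of the list. Hspa1b was at 31.0, 23.8 and 13.0 CPM in 60 min mice, against 99.9, 88.3 and 400 CPM in the controls (−3.11 ± 0.81, adjusted p = 0.227). Hspa1a was at 17.6, 10.6 and 12.0 CPM at 60 min and 51.3, 55.7 and 318 CPM in the controls (−3.40 ± 0.996, adjusted p = 0.262). The groups did not overlap for either gene, but control replicate 3 was several times above the other controls, and without it the log2 fold changes were −2.06 for Hspa1b and −2.00 for Hspa1a. These genes are near-identical copies, so the division of reads between them is uncertain. The constitutive Hspa8 was at 1520.3, 1392 and 1397 CPM at 60 min and 1857, 1538 and 1849 CPM in the controls, without overlap (−0.28 ± 0.14, unadjusted p = 0.0586).

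Of the other HSP40 genes, Dnaja1, a partner of HSP70 in folding, was at 175, 155 and 123 CPM in 60 min mice and 272, 204 and 249 CPM in the controls (−0.68 ± 0.15, adjusted p = 0.175). Dnajb2, which sends HSP70 clients to the proteasome, was at 11.03, 9.08 and 9.66 CPM and 13.3, 13.6 and 17.6 CPM (−0.58 ± 0.18, adjusted p = 0.262). Neither gene's groups overlapped. Dnajb6 and Dnajb4 were also lower without overlap (−0.29 and −0.40, unadjusted p = 0.0248 and 0.0576).

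Nucleotide exchange factors, which release clients from HSP70, did not all share a direction. Hsph1 (HSP110) was at 45.5, 38.8 and 37.9 CPM in 60 min mice and 125, 54.1 and 110 CPM in the controls (−1.24 ± 0.28, adjusted p = 0.175). Bag3, which also links HSP70 to selective autophagy, was at 39.9, 45.3 and 34.7 CPM at 60 min and 56.3, 53.9 and 68.7 CPM in the controls (−0.58 ± 0.14, adjusted p = 0.175). In these 2 genes all 60 min values lay under all control values. The HSP110 relatives Hspa4 and Hspa4l had fold changes of 0.15 and −0.04.

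The HSP90 genes stood closer to 0, with −0.33 ± 0.16 for the inducible Hsp90aa1 and 0.00 ± 0.15 for Hsp90ab1. The HSP90 co-chaperones Stip1, Fkbp4 and Ahsa1 had −0.02, −0.05 and −0.24. The transcription factor Hsf1 was at 20.3, 17.7 and 13.1 CPM in 60 min mice and 21.6, 20.5 and 19.8 CPM in the controls, which overlapped (−0.28 ± 0.15, adjusted p = 0.473). The gene with a positive nominal value was Hspb8, a small heat shock protein that works with Bag3, at 1.36, 0.806 and 0.466 CPM against 0.308, 0.0539 and 0.141 CPM (2.33 ± 0.75, adjusted p = 0.265).

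**Figure D2:**
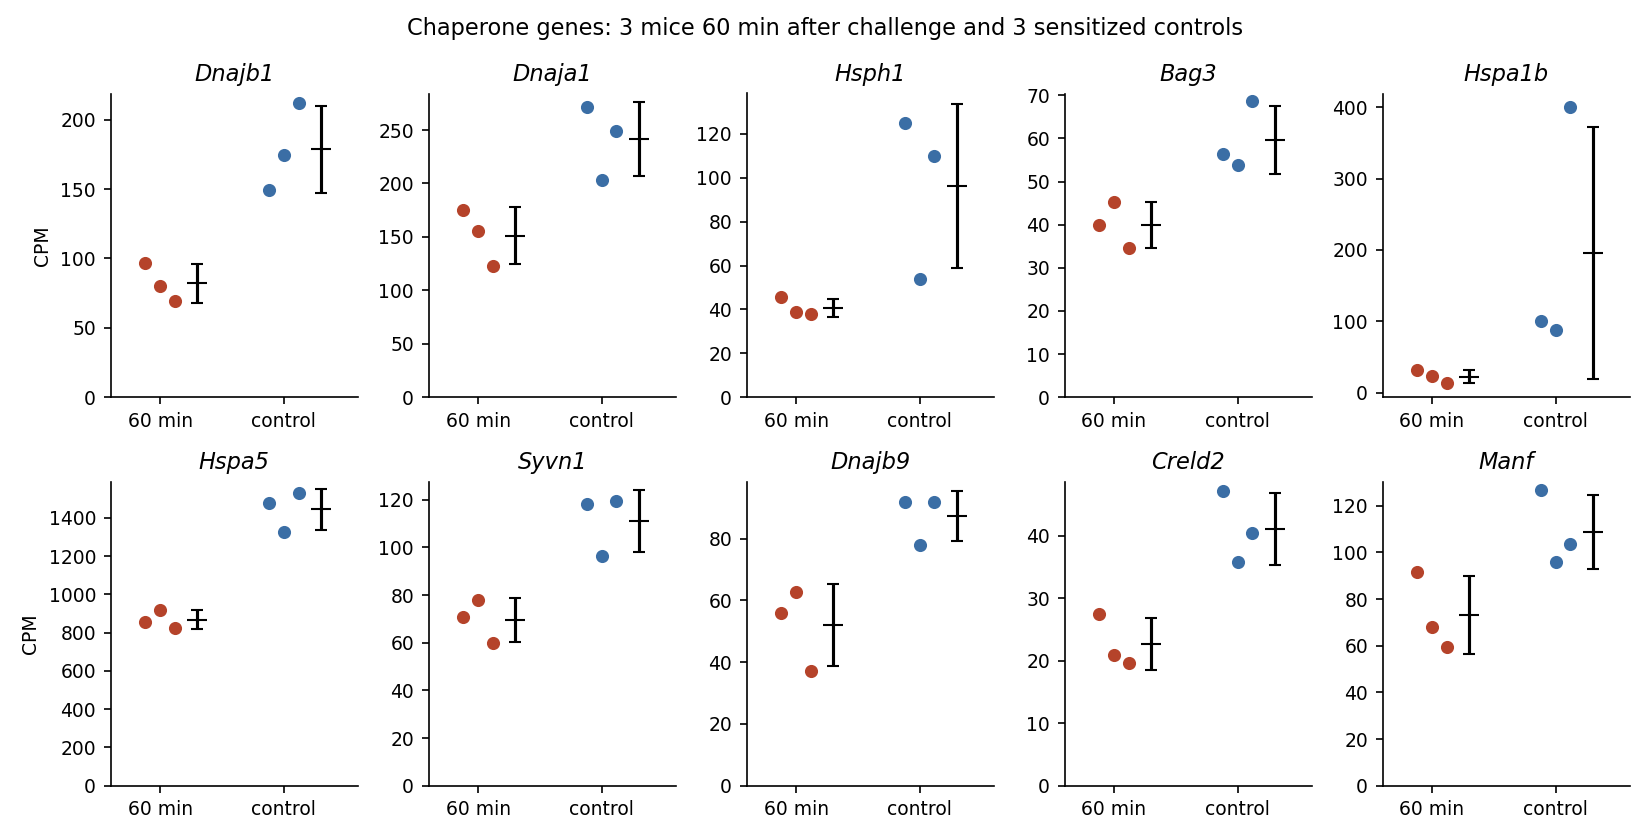
Level in CPM (vertical axis, linear, from 0) of 5 cytosolic chaperone genes in the upper and 5 ER genes in the lower row, in 3 mice 60 min after challenge (red) and 3 sensitized controls (blue). Points are mice and bars are mean ± SD; in each of the 10 panels the 60 min mice lie below the controls, and Dnajb1 alone passed the adjusted p.

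Promoter windows of the list were searched for the letters that HSF1 sites are built from, since HSF1 is known to induce heat shock genes, though not every member of the list need be a target. A pair of heat shock units, GAANNTTC or TTCNNGAA (each reads the same on both strands), lay within 250 bases before a start in 10 of the 21 tested members with a RefSeq promoter (47.6%). Of 32851 mouse promoters of the same length, 12.8% held a pair. A member with several starts was counted once if any of them had the pair, whereas the 12.8% counts single promoters, so these shares have unlike units. In Dnaja4, Dnajb4 and Hspd1 the pair lay only at a start other than the most upstream one. Windows are shown for 3 of the 10, described above as lower, read 5′ to 3′ along the gene from RefSeq sequence of GRCm38.p6, with the pair in capitals. They are chr17:34959295-34959382 (minus strand) for Hspa1b, chr5:149636337-149636409 (minus strand) for Hsph1 and chr4:40722304-40722391 (plus strand) for Dnaja1.
Hspa1b: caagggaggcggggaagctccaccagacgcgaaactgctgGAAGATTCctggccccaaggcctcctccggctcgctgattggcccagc
Hsph1: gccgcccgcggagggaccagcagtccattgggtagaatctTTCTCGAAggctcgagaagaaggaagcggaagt
Dnaja1: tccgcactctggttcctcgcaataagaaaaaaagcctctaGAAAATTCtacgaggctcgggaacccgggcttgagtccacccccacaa
The pairs begin 104, 33 and 124 bases before the start of Hspa1b, Hsph1 and Dnaja1. The window of Hspa1a holds the same letters as that of Hspa1b. Neither of the RefSeq windows of Dnajb1, the gene that passed, holds a pair (0 pairs each). A match is a description of the letters and not a measured site.

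The ER chaperone and unfolded protein response list held 25 tested genes, 18 with negative and 7 with positive log2 fold changes and a median of −0.24 (−0.28 with the length trend removed). At an unadjusted p under 0.05, 10 were lower and 0 higher (against 6.09% and 6.49% of all genes), and in 8 the groups did not overlap, all lower (against 9.14% of all genes). No member passed the adjusted threshold in edgeR. The count of 10 was 5 without control replicate 3, 6 without control replicate 1, 5 without 60 min replicate 2 and 7 without 60 min replicate 1, where 3 other members were higher.

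Hspa5 (BiP, the HSP70 of the ER, ENSMUSG00000026864.13, chr2:34771970-34777547, plus strand) had the smallest p of the list. Its level was 858, 921 and 823 CPM in the 60 min mice, against 1478, 1325 and 1530 CPM in the sensitized controls (−0.74 ± 0.15, adjusted p = 0.175). The range within each group was smaller than the gap between the groups. PBS mice were at 1132, 1657 and 1465 CPM, and the 30 min and 120 min mice at 1042 to 1110 and 1020 to 1261 CPM, so all 12 other libraries lay above the 60 min mice.

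Dnajb9, an ER HSP40 that binds Hspa5, was at 56.1, 62.9 and 37.3 CPM in 60 min mice and 92.0, 77.9 and 92.0 CPM in the controls (−0.74 ± 0.16, adjusted p = 0.175). Syvn1 (HRD1), the ubiquitin ligase of ER-associated degradation, was at 71.0, 78.1 and 59.9 CPM at 60 min and 118, 96.2 and 119 CPM in the controls (−0.67 ± 0.14, adjusted p = 0.175). Creld2, an ER stress-inducible secreted protein, was at 27.4, 20.9 and 19.6 CPM and 47.2, 35.8 and 40.4 CPM (−0.86 ± 0.20, adjusted p = 0.175). The 60 min values lay below the controls in all 3. The lectin chaperone Calr (−0.39 ± 0.14), the neurotrophic ER protein Manf (−0.57 ± 0.17), the disulfide isomerase Pdia3 (−0.33, unadjusted p = 0.0387) and Edem1 (−0.24, unadjusted p = 0.0356), which marks glycoproteins for degradation, were lower without overlap.

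The members did not move together throughout. Canx, the membrane-bound partner of Calr, was at 0.08, and the isomerases Pdia4 and Pdia6 and the large HSP70 Hyou1 were at 0.22, 0.59 and 0.10. Of the sensors, Atf6 was at 0.32, Ern1 (IRE1) at 0.14 and Eif2ak3 (PERK) at −0.20, all with unadjusted p over 0.05. Xbp1, whose spliced form drives many of these genes, was at 152, 142 and 140 CPM in 60 min mice and 189, 151 and 174 CPM in the controls, which overlapped (−0.25 ± 0.11, adjusted p = 0.378). Splice forms of Xbp1 were not measured here.

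The ER stress element, searched on both strands as CCAAT, 9 bases of any kind and CCACG, is the site that ATF6 and NF-Y are known to bind. It lay in the promoter windows of 9 of the 20 tested members with a RefSeq promoter (45.0%) and in 37 of all 32851 promoters (0.113%). Here too, members were counted by gene, over all their starts, and the share of all promoters by single promoter. The 9 were Calr, Canx, Creld2, Derl3, Dnajc3, Hsp90b1, Hspa5, Pdia6 and Syvn1, and Herpud1 held the related ER stress element II (ATTGG, 1 base of any kind and CCACG), found in 0.0304% of promoters. Windows are shown for the 4 of them described above as lower, in RefSeq sequence of GRCm38.p6 along the gene, with the element in capitals. They are chr2:34771985-34772083 (plus strand) for Hspa5, chr19:6046492-6046575 (plus strand) for Syvn1, chr15:88819480-88819578 (plus strand) for Creld2 and chr8:84847035-84847133 (minus strand) for Calr.
Hspa5: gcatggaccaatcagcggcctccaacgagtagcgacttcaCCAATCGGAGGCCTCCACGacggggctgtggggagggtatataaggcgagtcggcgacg
Syvn1: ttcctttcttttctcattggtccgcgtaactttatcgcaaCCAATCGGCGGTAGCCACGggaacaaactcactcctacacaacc
Creld2: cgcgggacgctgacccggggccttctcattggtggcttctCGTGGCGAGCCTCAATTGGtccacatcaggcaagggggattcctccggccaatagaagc
Calr: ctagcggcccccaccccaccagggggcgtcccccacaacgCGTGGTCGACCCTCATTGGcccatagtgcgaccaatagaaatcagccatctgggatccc
In Creld2 and Calr the element lies on the opposite strand, so the capitals are its reverse complement. Canx and Pdia6 hold the element and had positive fold changes (0.08 and 0.59, unadjusted p = 0.574 and 0.240 in edgeR), and the rest of the 9 had negative ones. Whether the element goes with the direction within the list was not tested.

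Targets of ATF4, the factor of the integrated stress response, had a median of −0.22 over 17 genes (−0.13 with the length trend removed), with 12 negative and 5 positive, and 3 lower at an unadjusted p under 0.05 (against 6.09% of all genes). The median was −0.06 without 60 min replicate 3 and −0.10 without 60 min replicate 2. Ddit3 (CHOP), a stress-induced transcription factor, was at 41.0, 28.04 and 11.9 CPM in 60 min mice and 53.5, 52.7 and 51.7 CPM in the controls (−0.96 ± 0.30, adjusted p = 0.268). Ppp1r15a (GADD34), which returns eIF2α to its active form, was at 80.6, 60.4 and 36.0 CPM and 106, 96.8 and 105 CPM (−0.79 ± 0.23, adjusted p = 0.231). In both genes 60 min replicate 3 was lowest and replicate 1 nearest to the controls. The amino acid genes of the list did not share this, with 0.53 for Psat1, 0.18 for Phgdh and −0.06 for Asns.

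Immediate early genes, which many stimuli induce within minutes and which tissue dissociation also induces, were lower in 20 of 25 members and higher in 5, with a median of −0.34 (−0.34 with the length trend removed). At an unadjusted p under 0.05, 6 were lower (against 6.09% of all genes) and 0 higher. Fosb, a subunit of AP-1, was at 667, 904 and 462 CPM in 60 min mice and 1408, 1347 and 1116 CPM in the controls (−0.93 ± 0.20, adjusted p = 0.175). Atf3 was at 860, 711 and 304 CPM and 1060, 1098 and 950 CPM (−0.73 ± 0.26, adjusted p = 0.299). Neither overlapped. Fos and Egr1, the classic members, did: Fos was at 1436, 1431 and 920 CPM at 60 min and 1638, 1402 and 1349 CPM in the controls (−0.21 ± 0.17), and Egr1 was at −0.02 ± 0.18. The median of the list was −0.13 without 60 min replicate 3, with 3 nominally lower genes, and −0.51 without replicate 1, with 12; without replicate 2 there were 9. Csrnp1, a nuclear protein outside the list, was at 66.8, 56.9 and 34.6 CPM in 60 min mice and 106, 99.4 and 91.8 CPM in the controls (−0.91 ± 0.18, adjusted p = 0.175).

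**Figure D3:**
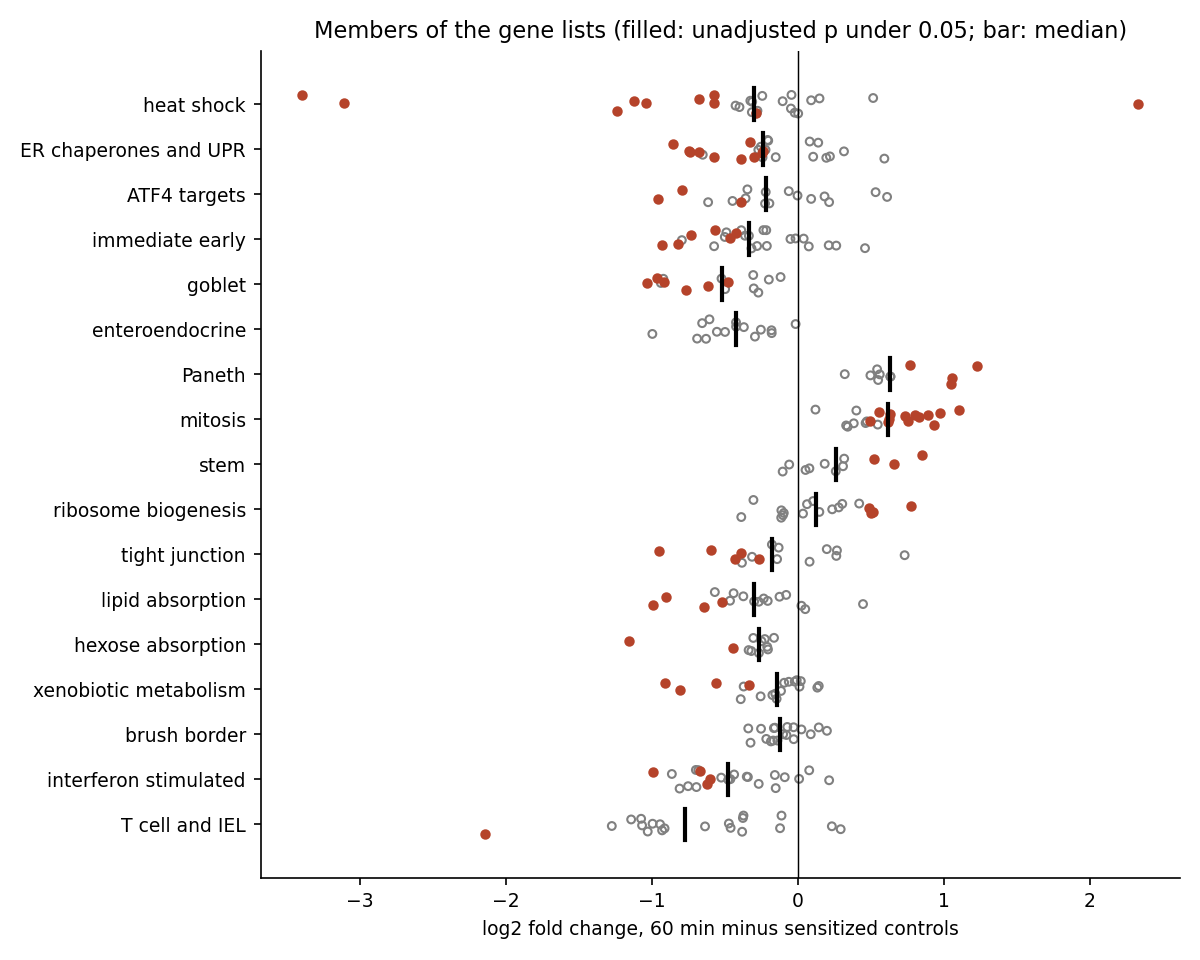
Log2 fold change at 60 min minus sensitized controls (horizontal axis) of each tested member of 17 gene lists (rows). Filled points have an unadjusted p under 0.05 and bars are medians: goblet, enteroendocrine, heat shock and immediate early genes lie mostly left of 0, and all tested Paneth and mitosis genes lie right of it.

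Goblet cell genes were lower in all 15 tested members, with a median of −0.52 (−0.56 with the length trend removed). At an unadjusted p under 0.05, 6 were lower (against 6.09% of all genes), and in 6 the groups did not overlap (against 9.14%). Zg16, a lectin that holds bacteria off the mucus, was at 1382, 1006 and 807 CPM in 60 min mice, against 1604, 2283 and 2661 CPM in the controls (−1.04 ± 0.29, adjusted p = 0.227). Clca1, a mucus-processing protease, was at 748, 720 and 782 CPM at 60 min and 901, 1740 and 1610 CPM in the controls (−0.92 ± 0.26, adjusted p = 0.227). Control replicate 1 was the lowest control for both genes and lay nearest to the 60 min mice. The trefoil peptide Tff3 overlapped, at 513, 298 and 179 CPM and 477, 659 and 794 CPM (−0.96 ± 0.41). The goblet transcription factor Spdef was at −0.48 ± 0.20 and Guca2a, the precursor of guanylin, at −0.62 ± 0.20, both without overlap. The main mucin Muc2 was at −0.12 ± 0.32 and Fcgbp, which binds it, at −0.31 ± 0.30. Muc2 and Fcgbp are long transcripts. In both, and in Clca1, 60 min replicate 3 was the highest of the 60 min mice, whereas in Zg16 and Tff3 it was the lowest. The part of length in these differences was not tested. The median effective length of the list was 769 bases. The count of 6 was 3 without control replicate 2, control replicate 3 or 60 min replicate 3, and 4 without 60 min replicate 2.

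Enteroendocrine genes were lower in all 15 tested members as well, with a median of −0.42, but none reached an unadjusted p of 0.05. Their mean log2 CPM overlapped, at 1.17 to 3.15 in 60 min mice and 2.89 to 3.07 in the controls. Without 60 min replicate 3 the median was −0.06, and 4 of the 15 were higher; without 60 min replicate 1 it was −0.91. The hormones with the smallest p were secretin (Sct, −0.69 ± 0.40) and peptide YY (Pyy, −0.997 ± 0.60).

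Paneth cell genes were higher in all 11 tested members, with a median of 0.63 (0.83 with the length trend removed). At an unadjusted p under 0.05, 4 were higher, against 6.49% of all genes, and in 7 the groups did not overlap, against 9.37%. Itln1, an intelectin that binds microbial glycans, was at 1532, 1878 and 2832 CPM in 60 min mice, against 1086, 878 and 1058 CPM in the controls (1.05 ± 0.27, adjusted p = 0.203). Mptx2, a pentraxin of Paneth cells, was at 290, 289 and 624 CPM at 60 min and 171, 149 and 193 CPM in the controls (1.23 ± 0.49, adjusted p = 0.336). Ang4, an antimicrobial ribonuclease, was at 143, 187 and 335 CPM and 93.9, 110 and 115 CPM (1.06 ± 0.42, adjusted p = 0.334). All 3 were highest in 60 min replicate 3. The α-defensin Defa17 was at 409, 365 and 484 CPM and 264, 226 and 249 CPM (0.77 ± 0.27, adjusted p = 0.299). Defensin genes resemble each other closely, so single members are uncertain. The count of 4 was 1 without 60 min replicate 3, with a median of 0.63, and 2 without control replicate 1. Against PBS mice all 11 were still above 0, but the median was 0.35. The defining marker Lyz1 was too low to be tested, with 0 to 14 estimated counts in the 15 libraries.

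Genes of mitosis were higher in all 21 tested members, with a median of 0.62 (0.57 with the length trend removed), 13 of them at an unadjusted p under 0.05 (against 6.49% of all genes) and 14 without overlap (against 9.37%). Kif11, the motor that separates spindle poles, was at 34.3, 35.1 and 37.4 CPM in 60 min mice, against 21.4, 18.6 and 17.6 CPM in the controls (0.89 ± 0.16, adjusted p = 0.175). Aspm, which focuses those poles and is not in the list, was at 19.7, 19.5 and 17.3 CPM at 60 min and 9.74, 9.05 and 7.28 CPM in the controls (1.11 ± 0.22, adjusted p = 0.175). Mki67, the proliferation marker, was at 189, 243 and 301 CPM and 128, 129 and 127 CPM (0.93 ± 0.22, adjusted p = 0.175). The 60 min mice were above the controls in all 3 genes. The count of nominal values was 11 to 17 whichever of the 6 libraries was left out. Against PBS mice the median was 0.23, with 17 higher and 4 lower, and Kif11 was at 27.1, 22.3 and 23.3 CPM in those mice, between the 60 min mice and the sensitized controls. Against the 30 min mice the median of the mitosis list was −0.06. Its mean log2 CPM was 4.52 to 5.02 at 30 min and 4.56 to 4.81 at 60 min. Genes of DNA replication were nearer to 0, with a median of 0.19, 14 higher and 5 lower, and 2 with an unadjusted p under 0.05 (against 6.49% of all genes), the ligase Lig1 (0.55 ± 0.20) and the helicase subunit Mcm5 (0.48 ± 0.20). The replication median was 0.08 without 60 min replicate 1 and 0.30 without 60 min replicate 3, and against PBS mice it was 0.006, with 10 higher and 9 lower.

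Stem cell genes had a median of 0.26 (0.16 with the length trend removed), with 9 of 11 higher and 3 at an unadjusted p under 0.05 (against 6.49% of all genes). Without control replicate 3 the median was 0.11, with 1 such gene, without 60 min replicate 1 it was 0.11, without control replicate 1 it was 0.39, and without 60 min replicate 3 the count was 6. Lgr5, the receptor that marks crypt base stem cells, was at 34.9, 37.5 and 33.9 CPM in 60 min mice and 29.6, 24.1 and 13.3 CPM in the controls (0.66 ± 0.24, adjusted p = 0.308). Znrf3, a ligase that removes Wnt receptors, was at 18.7, 20.9 and 16.9 CPM and 11.4, 11.9 and 7.98 CPM (0.85 ± 0.20, adjusted p = 0.175). Both were without overlap, while Olfm4 (0.32), Ascl2 (−0.10) and Axin2 (−0.06) had unadjusted p over 0.05. Genes of ribosome biogenesis had a median of 0.13, with 12 higher and 6 lower, which was 0.03 without control replicate 3, 0.23 without control replicate 1 and 0.24 without 60 min replicate 3; Polr1a, the largest subunit of RNA polymerase I, was at 38.4, 50.8 and 62.7 CPM and 31.6, 27.3 and 29.7 CPM (0.78 ± 0.21, adjusted p = 0.218).

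Several of the genes with the smallest p in the upward direction belonged to no list. Smarcc1, a core subunit of the SWI/SNF remodelling complex, was at 67.2, 82.1 and 79.4 CPM in 60 min mice, against 44.4, 46.6 and 41.7 CPM in the controls (0.78 ± 0.13, adjusted p = 0.152). Asxl1, which acts with a histone H2A deubiquitinase, was at 54.6, 53.6 and 58.6 CPM at 60 min and 34.3, 37.4 and 32.8 CPM in the controls (0.67 ± 0.12, adjusted p = 0.175). Hcfc1, a host cell factor of transcription, was at 147, 181 and 191 CPM and 113, 109 and 113 CPM (0.63 ± 0.13). The 60 min mice lay above the controls in each. Top3a, Zkscan17, Ptpn4, Cdk6, Asb7, Etv6 and Tent5c followed with fold changes of 0.65 to 1.06 and an adjusted p of 0.175. Downward, Fam78a (−0.70), Abhd3 (−0.58), Tango2 (−0.58), Mfsd8 (−0.92) and Tmc8 (−1.10) stood beside the chaperones at the same adjusted p. Of these, Fam78a also passed with the length trend removed (−0.85, adjusted p = 0.041).

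**Figure D4:**
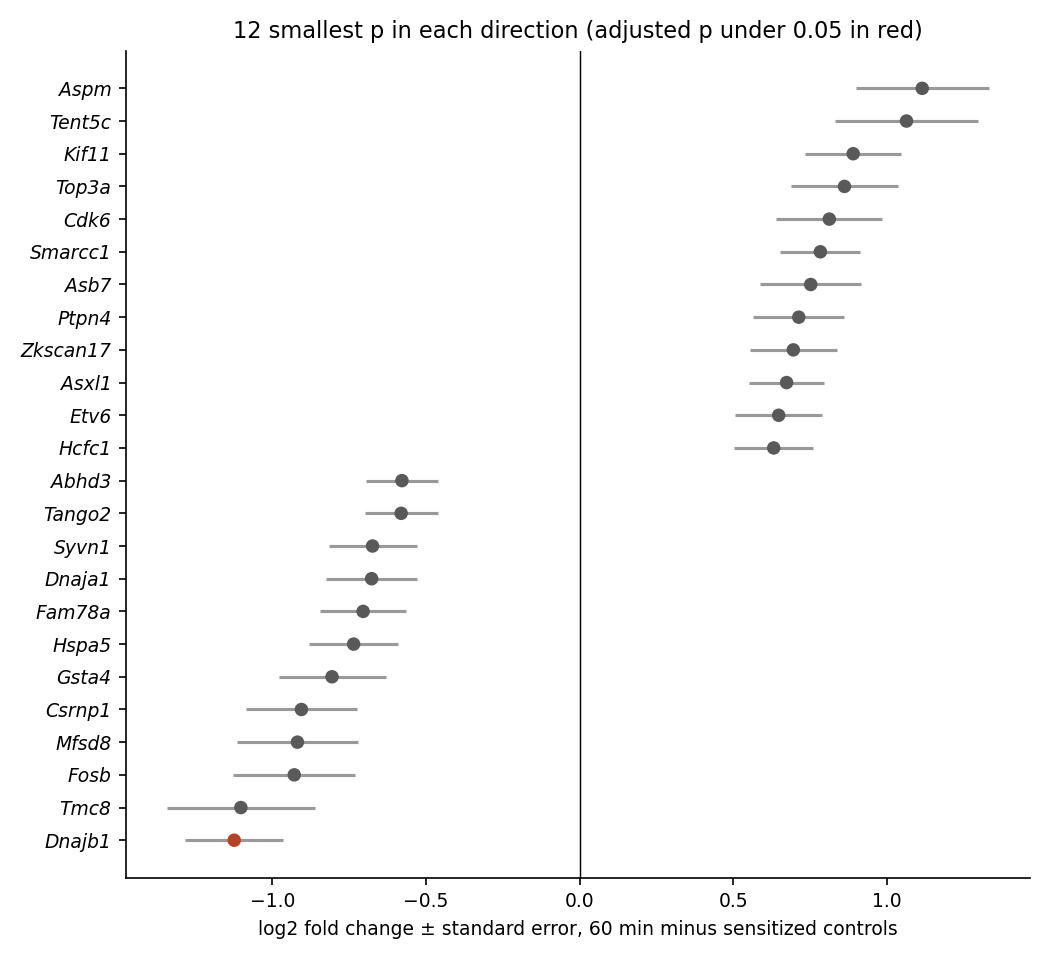
Log2 fold change at 60 min minus sensitized controls (horizontal axis, ± standard error) of the genes with the 12 smallest p in each direction among those without overlap. Dnajb1, in red, is the gene past the adjusted threshold, at −1.12; the others, in grey, have adjusted p of 0.152 to 0.175.

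Lists of absorptive enterocyte genes had medians below 0 at 60 min, but for brush border genes and for peptide and amino acid transporters the sign turned with single libraries. All 11 genes of hexose absorption and metabolism were lower, with a median of −0.27; the glucose 6-phosphatase G6pc was at 12.8, 21.97 and 18.9 CPM in 60 min mice and 44.4, 30.1 and 45.6 CPM in the controls (−1.16 ± 0.49, adjusted p = 0.365). Against PBS mice the median of these 11 was −0.04. Lipid absorption genes had a median of −0.30 (−0.19 with the length trend removed), 14 of 17 lower, with −0.17 without control replicate 1. The fatty acid binding protein Fabp1 was at 180, 112 and 115 CPM at 60 min and 275, 311 and 223 CPM in the controls (−0.99 ± 0.33, adjusted p = 0.287), and Fabp2 was at 685, 884 and 603 CPM and 1451, 888 and 1047 CPM (−0.64 ± 0.29, adjusted p = 0.380). Both were without overlap, although in Fabp2 the highest 60 min mouse and the lowest control were at 884 and 888 CPM. Apob, a very long transcript, was at 0.45 (unadjusted p = 0.21). Brush border genes had a median of −0.12, 14 of 18 lower and 0 at an unadjusted p under 0.05. Their median was 0.08, with 12 of 18 higher, without 60 min replicate 1, 0.04 without control replicate 1 and −0.24 without 60 min replicate 3. Peptide and amino acid transporters had a median of −0.04, which was 0.16, with 9 of 11 higher, without 60 min replicate 1 and 0.12 without control replicate 1; with any other of the 6 libraries left out it lay between −0.16 and −0.10.

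Xenobiotic metabolism genes had a median of −0.15 (−0.07 with the length trend removed), and 4 of 19 were lower at an unadjusted p under 0.05 (against 6.09% of all genes), 3 of them glutathione transferases. Gsta4, which conjugates products of lipid peroxidation, was at 23.8, 18.6 and 13.4 CPM in 60 min mice, against 36.9, 32.5 and 28.4 CPM in the controls (−0.81 ± 0.17, adjusted p = 0.175). Gstk1 was at 30.8, 33.6 and 25.4 CPM at 60 min and 47.9, 42.4 and 42.4 CPM in the controls (−0.56 ± 0.14, adjusted p = 0.178). The groups did not overlap in either gene. Gsta1 followed at −0.91 ± 0.31. The list median changed sign without 60 min replicate 1 (0.03) and without control replicate 1 (0.02). Genes of fatty acid oxidation under PPARα had a median of −0.20, and NRF2 antioxidant genes one of −0.10.

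Claudins, the strand proteins of tight junctions, made up all 5 of the nominally lower members (against 6.09% of all genes) of the tight junction list, which had a median of −0.18 over 15 genes. Cldn3 was at 619, 453 and 277 CPM in 60 min mice, against 685, 727 and 623 CPM in the controls (−0.59 ± 0.21, adjusted p = 0.303). Cldn4 was at 430, 247 and 88.4 CPM and 405, 616 and 464 CPM, which overlapped (−0.95 ± 0.40, adjusted p = 0.359). 60 min replicate 3 was lowest in both. The scaffold Tjp1, whose transcript is long, was at 0.27 (unadjusted p = 0.121). The count of 5 was 2 with the length trend removed, 2 without 60 min replicate 3, 2 without control replicate 1, 1 without control replicate 2 and 3 without control replicate 3. Of the ion transport genes, 4 of 17 were nominally higher (against 6.49% of all genes), among them the potassium channels Kcnn4 (0.47) and Kcnq1 (0.43) and the chloride importer Slc12a2 (0.52 ± 0.21), which feed chloride secretion; Cftr, the secretory chloride channel, was at 0.10 (unadjusted p = 0.68). The count of 4 was 1 without control replicate 3, and 2 without 60 min replicate 1, without 60 min replicate 2 or with the length trend removed.

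Genes known from allergy gave no call. The epithelial alarmin Il33 was at 13.2, 25.4 and 12.1 CPM in 60 min mice and 37.6, 13.6 and 18.9 CPM in the controls, which overlapped (−0.47 ± 0.45, adjusted p = 0.699). Mcpt1, a protease of mucosal mast cells, was at 4.94, 3.22 and 13.1 CPM at 60 min and 1.90, 15.0 and 7.56 CPM in the controls (−0.21 ± 0.71, adjusted p = 0.935). Hdc, which makes histamine, was at 1.47, 1.45 and 2.06 CPM and 0.461, 1.02 and 0.989 CPM without overlap (1.01 ± 0.46, adjusted p = 0.386). Of the mast cell markers, Cpa3, Fcer1a, Ms4a2, Tpsb2 and Cma1 were too low to be tested, and the tested ones summed to 32.1 to 64.7 CPM at 60 min and 28.5 to 48.7 CPM in the controls. Among the 8 tested genes of the type 2 and alarmin list all were below 0, with a median of −0.42, and Il18 had an unadjusted p under 0.05 (−0.68 ± 0.20, adjusted p = 0.244). The alarmins Tslp and Il25 were too low to be tested, with at most 2 and 1 estimated counts in any of the 15 libraries.

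Interferon-stimulated genes were lower in 20 of 23, with a median of −0.48. This median depended on 1 sensitized control: without control replicate 3 it was −0.02, with 10 higher and 13 lower. With PBS mice in place of the sensitized controls it was −0.29, with 20 of 23 lower. Stat2, a subunit of the factor that interferons activate, was at 17.3, 17.8 and 17.0 CPM in 60 min mice, against 24.4, 24.7 and 34.4 CPM in the controls (−0.67 ± 0.18, adjusted p = 0.221). Its partner Irf9 was at 17.1, 18.2 and 15.6 CPM at 60 min and 23.4, 20.7 and 34.4 CPM in the controls (−0.62 ± 0.21, adjusted p = 0.290). Control replicate 3 was highest in both. The same library was highest in markers of lymphocytes: Cd8a was at 7.82, 5.10 and 16.1 CPM at 60 min and 13.5, 12.2 and 35.2 CPM in the controls (−1.07 ± 0.70). The T cell list had a median of −0.78 with 18 of 20 lower, without control replicate 3 one of 0.07, and without 60 min replicate 3 one of −1.35. Against PBS mice its median was −1.11, with 20 of 20 lower. The part of lymphocyte content in the interferon genes was not tested. Among NF-κB targets, the subunit Nfkb2 was at 39.99, 38.3 and 34.7 CPM and 55.7, 58.3 and 57.0 CPM (−0.60 ± 0.14, adjusted p = 0.175), and the list had a median of −0.17.

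Levels of erythroid transcripts also differed among the 60 min mice, and blood content itself was not measured. The β-globin gene Hbb-bs was at 3.59, 5.05 and 22.1 CPM in 60 min mice, against 23.9, 29.8 and 31.4 CPM in the controls (−1.48 ± 0.61, adjusted p = 0.349). All 5 erythroid genes were below 0 with a median of −1.19, which was −2.52 without 60 min replicate 3, and globin copies share reads. Immunoglobulin genes took 0.241%, 0.192% and 0.158% of counts at 60 min and 0.137%, 0.146% and 0.190% in the controls.

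The other groups of the study place these values in time. Against the 30 min mice 0 genes passed at 60 min (0%; edgeR, with 667 at an unadjusted p under 0.05, 4.46%), DESeq2 called 5, and Dnajb1 was at −0.51. Against PBS mice 0 genes passed (0%; edgeR, 1574 at an unadjusted p under 0.05, 10.5%), DESeq2 called 80, and edgeR called 90 without 60 min replicate 1. The median against PBS mice was −0.29 for the heat shock list, −0.20 for the ER list and −0.49 for the goblet list, near the values against sensitized controls. Other lists were not near those values. Against PBS mice the median was 0.35 for Paneth, 0.23 for mitosis, −0.19 for immediate early and −0.04 for hexose genes. Against sensitized controls these were 0.63, 0.62, −0.34 and −0.27. For macrophage genes the median was −0.37 against PBS mice and 0.25 against sensitized controls. The comparisons share the 60 min libraries, so these medians are not independent of each other.

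Against the 120 min mice 168 genes passed (1.12%; 2954 genes, 19.7%, at an unadjusted p under 0.05), 80 higher at 60 min (0.534%) and 88 lower (0.588%). Paneth genes were higher at 60 min in the largest number of any list: 7 of the 11 passed, with a list median of 1.43. Itln1 was at 1532, 1878 and 2832 CPM at 60 min and 590, 464 and 838 CPM at 120 min (1.72 ± 0.27, adjusted p = 0.019, edgeR), and Ang4 was at 143, 187 and 335 CPM and 46.9, 29.1 and 73.5 CPM (2.15 ± 0.43, adjusted p = 0.0404). The 120 min values of both lay below those of the sensitized controls too. Cholesterol synthesis genes went the other way: 9 of 21 passed as lower at 60 min, with a list median of −0.66. Against the sensitized controls their median was 0.07 and 0 passed. Msmo1, a demethylase of sterol synthesis, was at 116, 107 and 84.6 CPM at 60 min and 195, 184 and 213 CPM at 120 min (−0.95 ± 0.15, adjusted p = 0.019), with 102, 99.6 and 102 CPM in the controls.

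Other genes that differed from 120 min were lower at 60 min in several absorptive cell functions. Apobec1, the editing enzyme of Apob RNA, was at 37.3, 39.0 and 46.0 CPM at 60 min and 87.2, 81.5 and 90.2 CPM at 120 min (−1.08 ± 0.16, adjusted p = 0.019). Slc51b, a subunit of the basolateral bile acid exporter, was at 34.2, 22.3 and 15.2 CPM and 85.8, 59.4 and 57.4 CPM (−1.49 ± 0.24, adjusted p = 0.019). The groups did not overlap in either gene. Without 60 min replicate 2 or 60 min replicate 3 the count for this comparison was 2, without 120 min replicate 1 or 120 min replicate 3 it was 0, without 120 min replicate 2 it was 298, and without 60 min replicate 1 it was 1151.

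**Figure D5:**
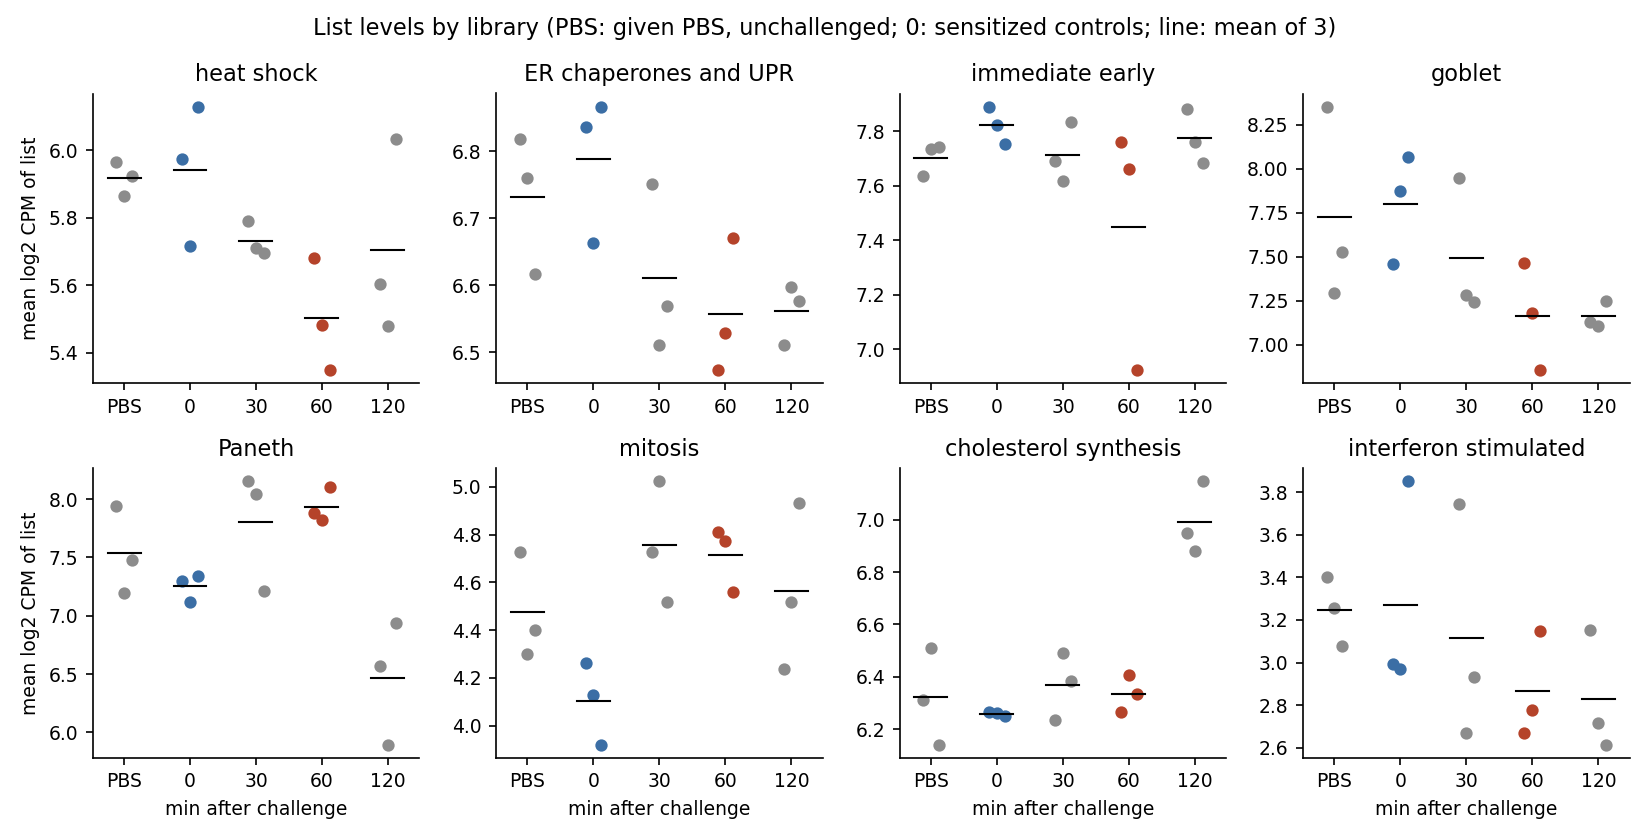
Mean log2 CPM of 8 gene lists (vertical axis) in each of the 15 libraries, in PBS mice, sensitized controls (0, blue) and sensitized mice 30, 60 (red) and 120 min after challenge (horizontal axis); lines are means of 3. The heat shock list runs from 5.35 to 5.68 in the 60 min mice and from 5.72 to 6.13 in the sensitized controls, and the Paneth list from 7.82 to 8.11 and from 7.12 to 7.34.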

How the data were processed

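The authors deposited 1 Salmon table per library, with an estimated count, a TPM value, a length and an effective length for each transcript, per the file headers. Per the submitters' processing notes, cutadapt 1.18, Salmon 1.2.1 and the mm10 build were used, with no annotation release named. Here the estimated counts of 139058 transcripts were summed over 52844 genes with GENCODE gene models, leaving 1115 transcripts unmatched, which held 0.374% to 0.602% of the deposited counts, and rounded. The deposited TPM values were used for no test, and the deposited effective lengths were used for the length checks. Totals of the 15 libraries were 15661513 to 22691349.

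edgeR 4.0.16 (R 4.3.3; TMM scaling, filterByExpr, robust quasi-likelihood fit, 1 mean per group over 15 libraries, 10 residual degrees of freedom, common biological coefficient of variation 0.26, prior count 2) tested 14968 genes, with Benjamini-Hochberg adjustment at 0.05. The script was tested on simulated data. Alternatives used DESeq2 1.42.0, limma-voom (limma 3.58.1) and other scalings, filters, controls and left-out libraries. Labels carry different numbers for each library and do not say outright that these are separate mice, so p-values measure the spread between these samples. Pairs of libraries of a group differed by more than sampling noise.

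Genes named in the text passed the adjusted threshold, were among the 12 smallest p in each direction (at least 2 CPM, groups not overlapping), led a gene list (up to 6 members), led a comparison with another time, or were stress and allergy genes always given; a few further members with high p are given for contrast and were chosen after their values were seen. Members and lists were chosen with earlier results of these data known. A few genes that the rule names are not reported here.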

Additional observations from a re-analysis of the deposited data

Results flagged for a closer look

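For 10 named genes the challenge effect at 60 min differed from that at 120 min by a direct test of the difference (edgeR, 168 genes in all), although none of them passed at 60 min against the sensitized controls. Values are log2 differences, 60 min minus 120 min. Higher at 60 min were the Paneth genes Ang4 (2.15), Itln1 (1.72) and Defa17 (1.43), the lectin Reg4 (1.32), the stem cell receptor Lgr5 (1.09), the spindle gene Aspm (1.10) and Tent5c (1.5). Lower at 60 min were the glutathione transferase Gsta4 (−1.01), the glucose transporter Slc2a1 (−0.91) and the villus keratin Krt20 (−0.68).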

How the results depend on the processing

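Dnajb1 was lower at 60 min in every setting run. Its call was lost with library totals as the only scaling (−1.06), in a fit of the 6 libraries alone (−1.12), against PBS mice (−0.86), against both unchallenged groups (−0.99) and with a transcript length offset (−1.10 on the log2 scale); leaving out single libraries gave −1.25 to −0.99. The number of genes called against the sensitized controls was 0 with library totals, the 6 libraries, PBS mice, both unchallenged groups or the length offset, 49 with no low-count filter, 189 with DESeq2, 2 with the length trend removed, and 0 to 385 without single libraries. Against PBS mice it was 10 with no filter, 80 with DESeq2 and 0 to 90 without single libraries. Against 120 min it was 4 with library totals, 279 with no filter, 269 with a stricter filter, 950 with DESeq2, 272 with the length trend removed and 0 to 1151 without single libraries. Against 30 min it was 5 with DESeq2 and 0 to 1 without single libraries. The length and GC trend settings were chosen after seeing the data, and the cause of these shifts was not tested.

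List medians moved by more than the spread between replicates under other controls or trends for Paneth (0.35 against PBS mice, 0.45 against both unchallenged groups, 0.83 with the length trend removed), mitosis (0.23 and 0.39 against those controls), hexose (−0.044), clock (0.14) and macrophage genes (−0.37) against PBS mice, NF-κB (−0.32 and −0.31 against those controls), Reg lectins (0.14 with the length trend removed) and epithelial markers (−0.12 with the GC trend removed). Without single libraries the medians ranged from −0.55 to 0.45 for tuft, 0.046 to 0.135 for cholesterol, −0.29 to −0.15 for NF-κB, −0.666 to −0.019 for interferon, −0.46 to −0.28 for type 2, −0.162 to −0.009 for hypoxia, −0.30 to 0.10 for Reg, −0.86 to 0.95 for B cell, −0.67 to 1.32 for MHC class II, −2.52 to −0.71 for erythroid and −0.52 to 0.60 for mitochondrially encoded genes. They ranged from −0.24 to 0.08 for brush border, −0.16 to 0.16 for amino acid transport, −0.20 to 0.52 for macrophage, −0.07 to 0.27 for glucocorticoid, −0.39 to 0.05 for clock, 0.03 to 0.24 for ribosome biogenesis, 0.11 to 0.39 for stem, −0.27 to −0.06 for ATF4, 0.08 to 0.30 for replication, −0.08 to 0.19 for ion transport, −0.30 to 0.03 for xenobiotic, −1.35 to 0.07 for T cell, −0.84 to 0.62 for mast cell and −0.23 to 0.29 for stromal genes.

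Signs turned for Egr1 (0.013 with library totals and against PBS mice, 0.038 with the length offset, 0.035 with the GC trend removed), Mcpt1 (0.117 with the length trend removed), Trpm5 (−1.408 against PBS mice, −0.536 against both), Jchain (−0.395) and Fcgr3 (−0.158) against PBS mice. They also turned when single libraries were left out, with ranges of −0.048 to 0.055 for Egr1, −0.983 to 0.618 for Mcpt1, −0.089 to 0.688 for Trpm5, −0.876 to 0.07 for Il33, −0.734 to 0.506 for H2-DMa, −1.621 to 0.708 for H2-DMb2, −0.228 to 2.515 for Col1a2, −0.249 to 0.946 for mt-Nd5 and −0.255 to 1.029 for mt-Nd6. The mitochondrial share differed by −4.55 percentage points without 60 min replicate 3, −0.10 and −0.62 without control replicates 1 and 2, and −4.55 to 5.06 over all 6. No paired analysis was possible because the labels share no replicate numbers between groups.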

Other observations

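Gene lists not described above gave no call at 60 min against the sensitized controls. Markers of the villus tip had a median of −0.46, 10 of 12 lower and 4 nominally so (against 6.09% of all genes). Without 60 min replicate 3 this median was −0.27, with 1 nominally lower, and without control replicate 1 there were 2. Ifrd1, a stress-responsive cofactor, was at 280, 199 and 91.4 CPM in 60 min mice, against 371, 420 and 313 CPM in the controls (−0.95 ± 0.31). Reg lectins had a median of −0.17, 4 of 5 lower, while Reg4 was at 93.9, 103 and 134 CPM at 60 min and 65.9, 60.7 and 55.4 CPM in the controls (0.86 ± 0.26). Medians of the other lists were −0.16 for the clock, −0.10 for hypoxia and glycolysis, 0.07 for glucocorticoid-induced genes, 0.09 for tuft, 0.25 for macrophage and dendritic cell, −0.45 for B and plasma cell, −0.19 for MHC class II and 0.32 for mitochondrially encoded genes. Among these, the macrophage median was −0.20 without 60 min replicate 3 and −0.01 without control replicate 2, the glucocorticoid median −0.07 without control replicate 3 and 0.27 without 60 min replicate 3, and the clock median 0.05 without 60 min replicate 3.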
